A study of Mus musculus with 18 samples.

Results

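Branched-chain amino acid catabolism enzymes were followed by RNA sequencing in 3T3-L1, a cell line of mouse fibroblasts that turn into fat cells in culture under the right stimulus. The set holds 10 genes chosen by symbol, Bcat2, Bckdha, Bckdhb, Dbt, Ivd, Mccc1, Mccc2, Hibch, Hibadh and Aldh6a1, among 15194 genes found in the deposited tables, and all 10 were found. The 18 libraries form 6 groups of 3. Control cells (CTL), cells labelled MLKL-/- and cells labelled RIPK3-/- were each sampled undifferentiated (J0) and differentiated (J7), and the groups are named J0_CTL, J0_MLKL, J0_RIPK3, J7_CTL, J7_MLKL and J7_RIPK3 after their titles. All groups share the 3T3-L1 background, J0 cells are labelled untreated and J7 cells differentiated, and no other agent is given. In necroptosis, a form of programmed cell death, the kinase RIPK3 phosphorylates MLKL, which then breaks the plasma membrane. The labels do not say how the knockouts were made, whether each is 1 clone, how the cells were differentiated or whether the 3 libraries of a group were separate cultures, so the spread behind each p-value may be technical. For the differentiated knockout libraries the genotype field names the other knockout than the title does. J7_MLKL and J7_RIPK3 are therefore title names, and any J0 to J7 change in a knockout assumes that the titles are right.

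Leucine, isoleucine and valine are first transaminated in mitochondria, and the resulting keto acids are committed to breakdown by a large dehydrogenase complex, branched-chain keto acid dehydrogenase (BCKDH). Each carbon skeleton then follows its own branch to acetyl-CoA, propionyl-CoA or acetoacetate. Differentiating adipocytes are known to burn these amino acids and to use their carbon for fatty acid synthesis. Bcat2 encodes the mitochondrial aminotransferase. Bckdha and Bckdhb encode the alpha and beta subunits of the E1 decarboxylase of BCKDH, and Dbt its E2 core transacylase. Ivd, Mccc1 and Mccc2 belong to the leucine branch, and Hibch, Hibadh and Aldh6a1 to the valine branch.

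Sequencing depth, recovered from counts and FPKM (fragments scaled to gene length and library size), was 20.2 to 36.9 M assigned reads per library. The tables list only genes that the authors called in some comparison, and all 10 enzymes had counts in 5 of the 6 groups but only 5 of them (Bcat2, Dbt, Ivd, Mccc1 and Aldh6a1) in J0_MLKL. The transcripts of both targeted genes were still read: Mlkl FPKM was 7.91 to 8.58 in J0_CTL, 3.12 to 4.22 in J0_MLKL, 11.01 to 11.95 in J7_CTL, 6.02 to 7.10 in J7_MLKL and 11.5 to 14.02 in J7_RIPK3. Ripk3 FPKM was 7.32 to 8.54 in J0_CTL, 6.41 to 7.55 in J0_RIPK3, 2.50 to 4.12 in J0_MLKL, 7.63 to 8.36 in J7_CTL, 4.44 to 5.09 in J7_RIPK3 and 3.37 to 5.23 in J7_MLKL. Neither gene was near 0 in a knockout group, and the parts deleted are not given. Library 3 of J7_MLKL and library 2 of J0_MLKL stood apart from their groups, with correlations of log2 CPM (counts scaled to library size) of at most 0.943 and 0.984 with the other libraries of the group. The 8 adipocyte markers summed to 14767 to 15588 CPM in J7_CTL, 15081 to 16978 in J7_RIPK3 and 1556 to 4091 in J7_MLKL, against at most 9.88 CPM in any J0 library, and none of the 8 was at 0 in a J7 group. Preadipocyte markers summed to 164 to 174 CPM in J7_CTL and 126 to 133 CPM in J7_RIPK3, each over 6 genes. In J7_MLKL they summed to 762 to 1544 CPM over the 5 with counts. A lower share of differentiated cells and less RNA per cell cannot be told apart in these bulk libraries. Of the marker lists of other cell types, 3 of 6 macrophage genes, 1 of 6 skeletal muscle genes, 2 of 4 endothelial genes and 2 of 4 epithelial genes had counts in J7_CTL; the last list summed to 31.4 to 35.8 CPM there and to 0.599 to 1.78 CPM in J7_MLKL.

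Levels are given per library as FPKM, which allows genes to be compared because it accounts for gene length. Bcat2 (ENSMUSG00000030826, chromosome 7, 45570153 to 45589711, plus strand, mm10) stood at 11.2, 10.9 and 11.4 FPKM in the J0_CTL libraries and at 135, 130 and 132 in J7_CTL. It was read at 10.1, 9.80 and 10.2 FPKM in J0_RIPK3 and 157, 154 and 138 in J7_RIPK3. Its FPKM was 11.3, 16.6 and 11.6 in J0_MLKL and 18.6, 21.3 and 44.8 in J7_MLKL. The aminotransferase was the highest of the 10 enzymes in J7_CTL and J7_RIPK3. Its J7_MLKL libraries were all below J7_CTL, with library 3 the highest of them, and library 2 was the high one of J0_MLKL.

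With differentiation the level of Dbt came closer to that of Bckdha as a ratio, in control cells and in the RIPK3 line. The E1 subunits did not come closer to each other. Mean Bckdhb over Bckdha went from 0.854 to 1.26 in control cells and from 0.993 to 1.496 in the RIPK3 line. Bckdha (ENSMUSG00000060376, chromosome 7, 25629946 to 25658981, minus strand) had 11.4, 10.7 and 10.8 FPKM in J0_CTL, 37.3, 36.3 and 35.8 in J7_CTL, 46.8, 45.6 and 38.6 in J7_RIPK3 and 12.7, 13.7 and 15.3 in J7_MLKL. Bckdhb (ENSMUSG00000032263, chromosome 9, 83925145 to 84124240, plus strand) had 9.602, 8.91 and 9.53 FPKM in J0_CTL, 47.1, 44.9 and 46.2 in J7_CTL, 69.8, 64.7 and 60.9 in J7_RIPK3 and 10.9, 13.1 and 19.2 in J7_MLKL. Both E1 genes were higher in each J7_CTL library than in any J0 library with counts. Dbt (ENSMUSG00000000340, chromosome 3, 116513070 to 116549981, plus strand) was the lowest of the 10 genes in J0_CTL, at 2.46, 2.38 and 2.82 FPKM, and reached 35.1, 34.7 and 35.4 in J7_CTL. It was at 3.104, 2.79 and 2.52 FPKM in J0_RIPK3 and 54.7, 57.3 and 50.5 in J7_RIPK3. The E2 gene was at 4.04, 3.33 and 3.91 FPKM in J0_MLKL and 4.63, 5.04 and 2.06 in J7_MLKL, so these groups overlapped and library 3 of J7_MLKL was below every J0_MLKL library.

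In the leucine branch, isovaleryl-CoA dehydrogenase (Ivd, ENSMUSG00000027332, chromosome 2, 118861954 to 118882909, plus strand) stood at 13.1, 12.6 and 12.2 FPKM in J0_CTL, 12.1, 10.9 and 11.2 in J0_RIPK3 and 9.39, 10.2 and 9.64 in J0_MLKL. At J7 it stood at 60.01, 58.8 and 60.04 FPKM in CTL, 71.4, 72.6 and 68.2 in RIPK3 and 15.98, 17.7 and 18.3 in MLKL. The J7 groups did not overlap each other, and J7_MLKL was nearer to J0 than to J7_CTL. Mccc1 (ENSMUSG00000027709, chromosome 3, 35959312 to 36000678, minus strand), the biotin-carrying alpha subunit of methylcrotonyl-CoA carboxylase, had 2.88, 2.91 and 3.03 FPKM in J0_CTL, 2.63, 2.69 and 2.79 in J0_RIPK3 and 3.45, 3.204 and 3.23 in J0_MLKL. Its J7 values were 6.96, 6.68 and 7.01 FPKM in CTL, 12.3, 12.1 and 11.4 in RIPK3 and 5.38, 5.497 and 5.599 in MLKL. Mccc1 was the lowest of the 10 in J7_CTL and J7_RIPK3, and relative to J7_CTL its J7_MLKL libraries came closer than those of any other member. Mccc2 (ENSMUSG00000021646, chromosome 13, 99948530 to 100015639, minus strand), the beta subunit of that carboxylase, had 8.51, 7.69 and 8.63 FPKM in J0_CTL, 23.7, 21.9 and 22.7 in J7_CTL, 29.3, 30.8 and 27.2 in J7_RIPK3 and 8.71, 9.403 and 11.5 in J7_MLKL.

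In the valine branch, 3-hydroxyisobutyryl-CoA hydrolase (Hibch, ENSMUSG00000041426, chromosome 1, 52844929 to 52920986, plus strand) had 4.19, 4.13 and 4.06 FPKM in J0_CTL, 33.9, 33.7 and 34.1 in J7_CTL, 35.7, 35.4 and 32.2 in J7_RIPK3 and 6.11, 6.34 and 7.09 in J7_MLKL. 3-hydroxyisobutyrate dehydrogenase (Hibadh, ENSMUSG00000029776, chromosome 6, 52546228 to 52640389, minus strand) had 10.3, 10.2 and 10.4 FPKM in J0_CTL, 41.2, 40.8 and 41.6 in J7_CTL, 39.4, 38.5 and 35.4 in J7_RIPK3 and 10.96, 12.3 and 13.9 in J7_MLKL. Hibadh was the only member whose J7_RIPK3 libraries all lay below those of J7_CTL, while the Hibch libraries of these groups overlapped. Aldh6a1 (ENSMUSG00000021238, chromosome 12, 84430717 to 84451004, minus strand), the methylmalonate-semialdehyde dehydrogenase that ends the branch, stood at 9.81, 9.09 and 9.16 FPKM in J0_CTL, 8.95, 8.996 and 8.68 in J0_RIPK3 and 9.27, 8.82 and 9.77 in J0_MLKL. It reached 84.4, 87.05 and 85.5 FPKM in J7_CTL, 99.1, 99.9 and 93.4 in J7_RIPK3 and 18.01, 20.4 and 16.4 in J7_MLKL. All J0 libraries lay between 8.68 and 9.81 FPKM for Aldh6a1, and the J7 groups did not overlap. Aldh6a1 overlaps the protein-coding gene Bbof1 in the RefSeq annotation, and whether counting used strand is not given in the sources used here, so shared reads cannot be told apart.

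**Figure D1:**
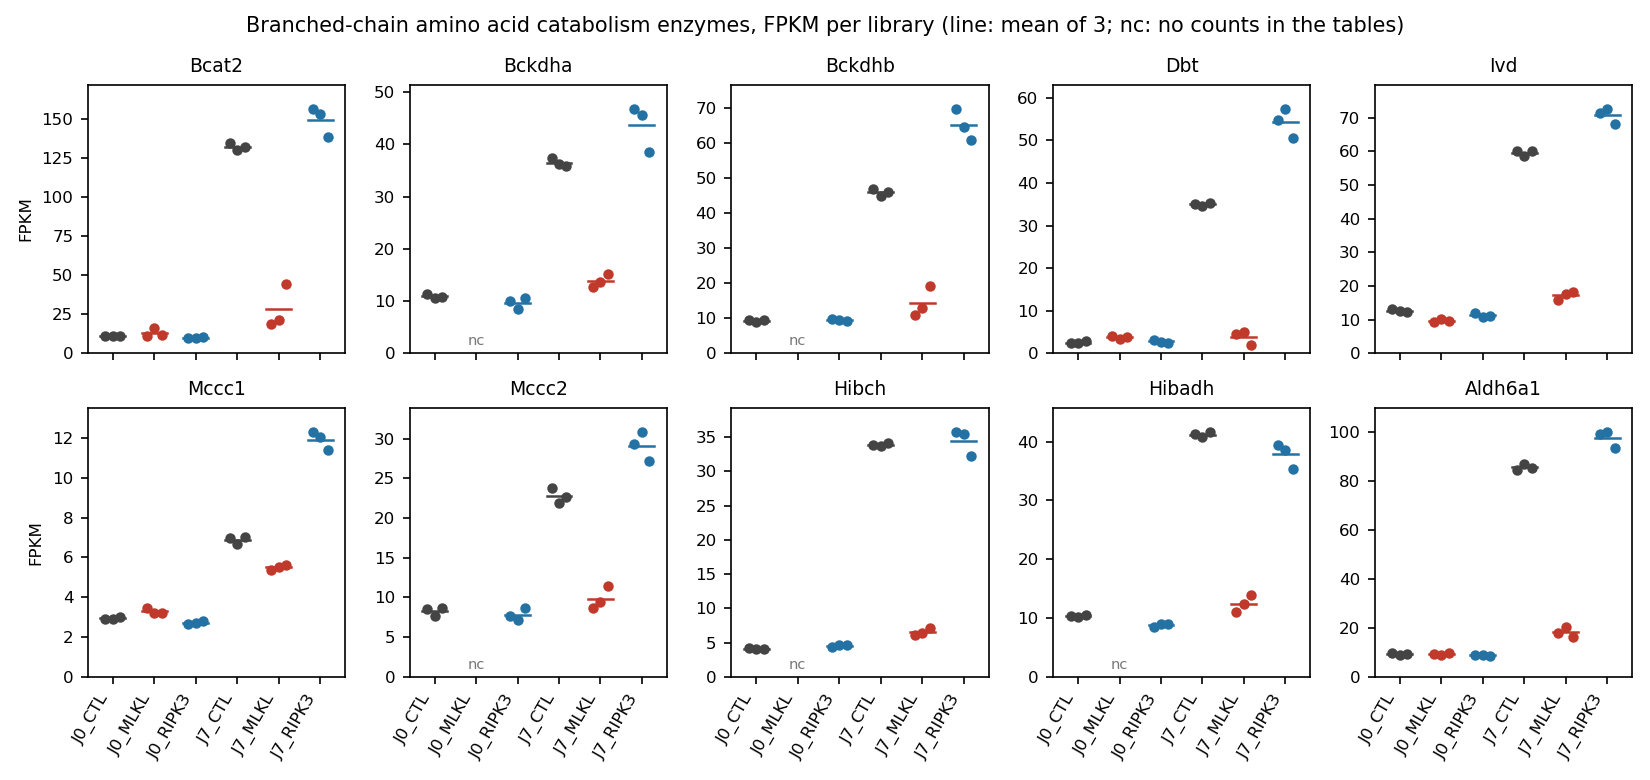
FPKM of the 10 enzymes (one panel each, linear axis from 0) in each library of the 6 groups, with points for libraries, lines for group means and nc where the tables hold no counts. J7_CTL and J7_RIPK3 libraries lie well above all J0 libraries in each panel, and J7_MLKL libraries lie below J7_CTL in all 10.

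The first comparison asks what differentiation did in control cells. From J0_CTL to J7_CTL all 10 enzymes rose (edgeR quasi-likelihood test on counts, adjusted p under 0.05), in a comparison in which 95.9% of 12055 tested genes were called and 48.2% were called higher. The step was largest for the E2 gene and the aminotransferase, with Dbt 13.8-fold higher (log2 3.74 ± 0.05 SE, adjusted p = 1.49e-26) and Bcat2 11.9-fold higher (3.52 ± 0.04, adjusted p = 2.11e-29). Aldh6a1 rose 9.12-fold and Hibch 8.20-fold, the next in size. The E1 genes rose less than the E2 gene, Bckdhb by 4.92-fold and Bckdha by 3.32-fold. Ivd rose 4.71-fold and Hibadh 3.99-fold. The carboxylase subunits moved least, Mccc2 by 2.75-fold and Mccc1 by 2.35-fold (log2 1.18 ± 0.04, adjusted p = 4.99e-18). The median log2 change over the 10 was 2.22, against 0.03 over all genes tested, and the summed CPM of the set went from 391 to 405 in J0_CTL to 2355 to 2385 in J7_CTL. No library left out and no other scaling took any of the 10 calls away.

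In the RIPK3 line all 10 enzymes were also higher at J7 than at J0 (edgeR, 97.8% of 11798 genes called and 49.3% called higher). Dbt again changed most, by 19.5-fold (log2 4.25 ± 0.06, adjusted p = 4.81e-24), followed by Bcat2 at 14.8-fold and Aldh6a1 at 10.99-fold. Hibch rose 7.48-fold, Bckdhb 6.83-fold and Ivd 6.21-fold. Bckdha (4.41-fold), Mccc1 (4.37-fold), Hibadh (4.25-fold) and Mccc2 (3.63-fold) rose least, and Mccc1 no longer stood below the others. The median log2 change of the set was 2.68, against 0.04 over all genes.

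The MLKL line could be followed for 5 of the 10 enzymes, and its changes were small. From J0_MLKL to J7_MLKL 4 of these 5 rose (edgeR, 66.7% of 3075 genes called and 35.8% called higher). Bcat2 rose 1.08 ± 0.36 on the log2 scale (adjusted p = 0.0341), Aldh6a1 0.94 ± 0.11 (adjusted p = 0.000792), Ivd 0.80 ± 0.10 (adjusted p = 0.000861) and Mccc1 0.70 ± 0.09 (adjusted p = 0.00105). Dbt differed by 0.02 ± 0.32 (adjusted p = 0.972), with overlapping libraries and a sign that depended on the scaling. The Bcat2 call was lost without library 1 or library 3 of J0_MLKL (adjusted p = 0.111 and 0.105). Without library 3 of J7_MLKL Bcat2 rose by 0.56, still called. Without both libraries that stood apart, Bcat2 rose by 0.74 and the same count of 4 was called. The 5 enzymes tested are those that the authors called in some J0_MLKL comparison, so their count says nothing of the other 5. Bcat2, Mccc1 and Aldh6a1 have J0_MLKL counts only because the authors called them in J7_MLKL against J0_MLKL. For these genes the calls of a rise were thus largely set by that selection.

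Because the genotype field pairs the differentiated knockout groups the other way round, both changes were also computed with that pairing, a choice made after seeing the data. J7_MLKL against J0_RIPK3 then gave 7 of the 10 enzymes higher (edgeR, 44.3% of 6442 genes called, with 1513 genes called higher). These were led by Bcat2 at log2 1.505 ± 0.34 (adjusted p = 0.0131), Aldh6a1 at 1.05 ± 0.10 and Mccc1 at 1.03 ± 0.08. Bckdhb (0.60, adjusted p = 0.0669), Dbt (0.48, adjusted p = 0.270) and Mccc2 (0.34, adjusted p = 0.107) did not pass. J7_RIPK3 against J0_MLKL gave 5 of 5 higher (87.4% of 3524 genes called, with 1506 genes called higher). They ran from Mccc1 at 2.00 ± 0.07 to Dbt at 3.998 ± 0.10. Under either pairing the J7_MLKL libraries showed the small changes and the J7_RIPK3 libraries the large ones.

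**Figure D2:**
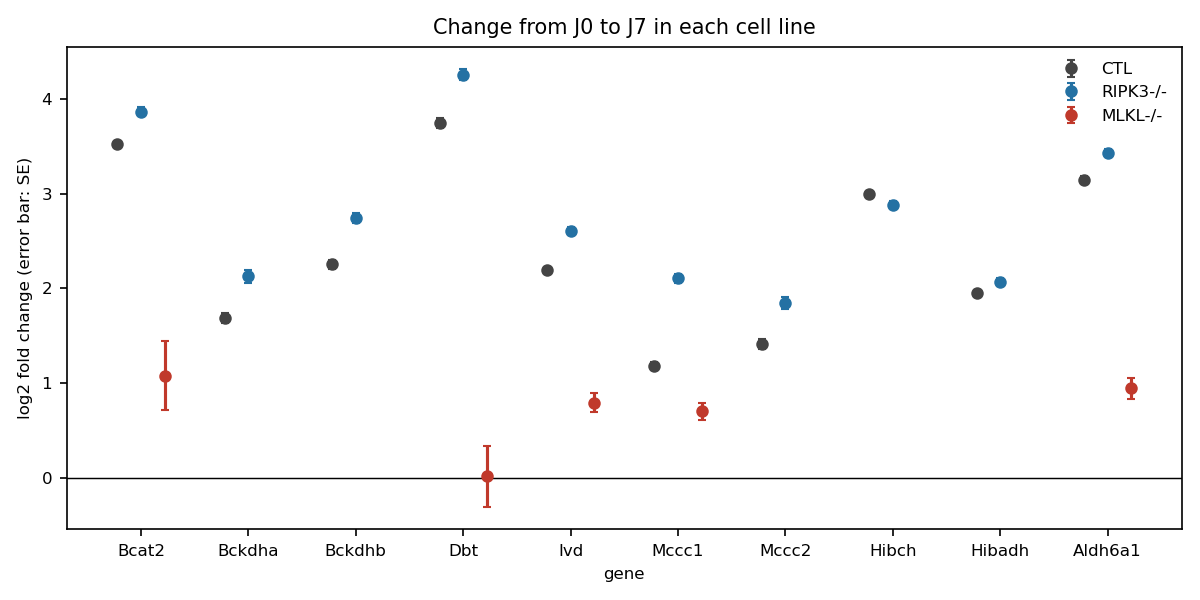
Log2 fold change from J0 to J7 (edgeR, y axis) for each enzyme (x axis) in CTL, RIPK3-/- and MLKL-/- cells as titled, with points for estimates and bars for SE. MLKL points exist for 5 enzymes and lie at 0.02 to 1.08, below the CTL points at 1.18 to 3.74.

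Promoters are shown because the 10 genes moved together with differentiation. RefSeq (GRCm38.p6) gave the promoter of 9 of the 10 genes, all but Dbt, and the 200 bases before the annotated start were searched on both strands. The 4 printed here, with their CCAAT motif in capitals (ATTGG is the same motif on the other strand), are the aminotransferase, an E1 subunit, the member that rose least in control cells and the last enzyme of the valine branch.
Bcat2, chr7:45569953-45570152, plus strand: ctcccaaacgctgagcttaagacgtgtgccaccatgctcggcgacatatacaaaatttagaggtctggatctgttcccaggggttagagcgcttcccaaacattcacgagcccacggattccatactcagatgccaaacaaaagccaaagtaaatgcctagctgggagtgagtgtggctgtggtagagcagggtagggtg
Bckdhb, chr9:83924937-83925136, plus strand: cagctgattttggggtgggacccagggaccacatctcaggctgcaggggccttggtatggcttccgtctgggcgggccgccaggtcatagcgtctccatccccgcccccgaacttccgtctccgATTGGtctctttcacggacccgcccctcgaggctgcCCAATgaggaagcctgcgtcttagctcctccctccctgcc
Mccc1, chr3:36000679-36000878, minus strand: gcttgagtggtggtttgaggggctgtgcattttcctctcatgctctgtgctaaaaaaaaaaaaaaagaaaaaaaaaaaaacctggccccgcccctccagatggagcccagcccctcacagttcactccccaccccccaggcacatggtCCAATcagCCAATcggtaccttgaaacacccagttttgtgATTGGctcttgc
Aldh6a1, chr12:84451025-84451224, minus strand: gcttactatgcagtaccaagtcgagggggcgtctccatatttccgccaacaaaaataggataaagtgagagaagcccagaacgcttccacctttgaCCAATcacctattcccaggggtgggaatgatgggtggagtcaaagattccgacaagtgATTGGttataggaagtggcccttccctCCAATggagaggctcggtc
The motif CCAAT was in 6 of the 9 promoters (2 copies in Bckdhb and 3 each in Mccc1 and Aldh6a1) and in 29.3% of 32851 RefSeq promoters of the same length. The GC box GGGCGG was in 4 of 9, against 31% of all. The nuclear receptor element AGGTCA, which also lies inside the next 2 motifs, was in 1 of 9 (11.4% of all). The direct repeat of AGGTCA with 1 base between the copies, bound by PPAR-RXR, and the ERR element TCAAGGTCA were in 0 of 9, and in 0.0335% and 0.277% of all. The C/EBP palindrome TTGCGCAA was in 0 of 9 (0.134% of all) and the NRF1 motif, GCGCA and GCGC with 1 base between them, in 1 of 9 (3.49% of all). These are matches of letters, and Bcat2, one of the members that rose most, held no CCAAT in this window.

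At J7 the MLKL libraries held less transcript of every enzyme than control libraries. All 10 were lower in J7_MLKL than in J7_CTL (edgeR, 94.9% of 7263 genes called and 46.4% called lower). The libraries of these groups did not overlap for 10 of the 10 enzymes, against 94.9% of the 7263 genes tested. Bckdha, Bckdhb, Dbt, Mccc2, Hibch and Hibadh have J7_MLKL counts only because the authors called them in this comparison. For these genes the calls and the lack of overlap were thus largely set by that selection. Dbt was at 10.9% of its J7_CTL level (log2 -3.07 ± 0.32, adjusted p = 0.000209). Hibch was at 19.3% (-2.28 ± 0.10, adjusted p = 9.10e-06), Aldh6a1 at 21.2% (-2.12 ± 0.11, adjusted p = 1.66e-05) and Bcat2 at 21.7% (-2.12 ± 0.34, adjusted p = 0.00125). These 4 genes had the largest differences of the set. Ivd was at 29.0%, Hibadh at 30.1%, Bckdhb at 31.5%, Bckdha at 38.2% and Mccc2 at 43.5% of J7_CTL. Mccc1 was at 79.8% (-0.22 ± 0.08, adjusted p = 0.0325), and this call was lost without any 1 of J7_CTL 1, J7_CTL 2, J7_CTL 3, J7_MLKL 1 or J7_MLKL 2. The Mccc1 call was also lost with a mean of at least 50 counts (edgeR, adjusted p = 0.0616) and with the replicate block (adjusted p = 0.113). Without library 3 of J7_MLKL the Bcat2 difference was -2.66 and all 10 calls were made. The median over the 10 was -1.66, against 0.17 over all genes, a median that moved by -0.10 when libraries were scaled by total reads only. The summed CPM of the set was 556, 616 and 718 in the J7_MLKL libraries. Adipocyte markers were lower and preadipocyte markers higher in the same libraries, as given above, and their part in this result was not tested.

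In J7_RIPK3 the set was shifted the other way by a smaller amount. Of the 10 enzymes 8 were higher and 1 was lower than in J7_CTL (edgeR, 59.1% of 11170 genes called, 29.6% higher and 29.5% lower). Mccc1 led with 1.73-fold (log2 0.80 ± 0.04, adjusted p = 1.96e-13), ahead of Dbt at 1.54-fold (0.64 ± 0.04, adjusted p = 9.98e-12) and Bckdhb at 1.41-fold (0.51 ± 0.04, adjusted p = 1.52e-09). Mccc2 was higher by 0.37 ± 0.05, Bckdha by 0.27 ± 0.05, Ivd by 0.26 ± 0.03, Aldh6a1 by 0.20 ± 0.03 and Bcat2 by 0.19 ± 0.04. Hibadh was lower by a small step (-0.11 ± 0.04, adjusted p = 0.0105), and Hibch differed by 0.04 ± 0.04 (adjusted p = 0.431). Among the members, all 6 of the leucine branch and the BCKDH complex were therefore called higher, and 1 of 3 of the valine branch. These counts do not cover the genes of each branch or of the complex that lie outside the set. All 9 calls were also made under each alternative scaling and without each library. Library 3 of J7_RIPK3 was the lowest of its group for all 10 genes by FPKM. The libraries of these groups did not overlap for 9 of the 10 enzymes, against 62.5% of the 11170 genes tested. Adipocyte markers were of like sum in both groups, with 5 of 8 called higher and 1 lower in J7_RIPK3 (edgeR). Preadipocyte markers summed to 126 to 133 CPM in J7_RIPK3 and 164 to 174 CPM in J7_CTL. Of the 4 preadipocyte markers tested 3 were called lower and 1 higher in J7_RIPK3. The part of these marker differences in the result was not tested.

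**Figure D3:**
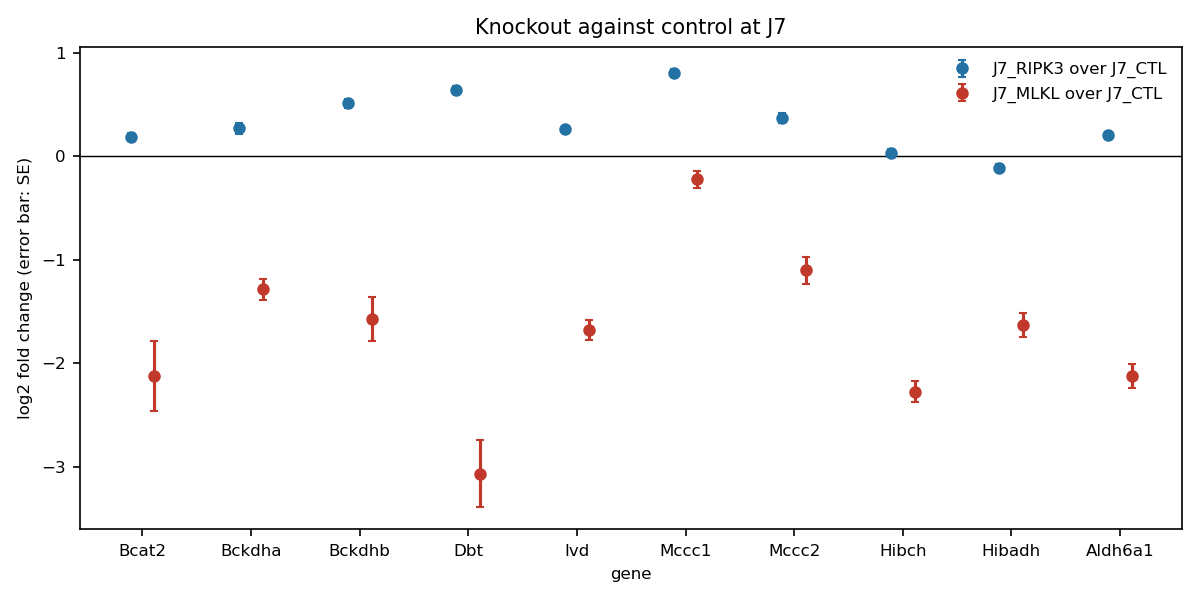
Log2 fold change of each knockout over control at J7 (edgeR, y axis) for each enzyme (x axis), with points for estimates and bars for SE. J7_MLKL points run from -3.07 (Dbt) to -0.22 (Mccc1) and J7_RIPK3 points from -0.11 (Hibadh) to 0.80 (Mccc1).

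Before differentiation the differences were small. In J0_RIPK3 6 of the 10 enzymes were lower than in J0_CTL and 0 higher (edgeR, 55.8% of 11044 genes called, 27.4% lower and 28.3% higher). Hibadh was lower by the largest step (log2 -0.24 ± 0.03, adjusted p = 2.73e-06), followed by Bckdha (-0.19 ± 0.08, adjusted p = 0.0370), Bcat2 (-0.17 ± 0.05, adjusted p = 0.00266), Ivd (-0.17 ± 0.04, adjusted p = 0.00122), Mccc1 (-0.14 ± 0.05, adjusted p = 0.0322) and Aldh6a1 (-0.10 ± 0.04, adjusted p = 0.0483). Bckdhb (0.01), Dbt (0.11), Hibch (0.13) and Mccc2 (-0.09) did not pass. With total reads only or the authors' size factors 3 were lower (Bcat2, Ivd and Hibadh) and Hibch was called higher (adjusted p = 0.0329 and 0.0388). The count fell to 3 with DESeq2 and without library 1 or library 2 of J0_RIPK3, and the authors' deposited table lists 3 as called, Bcat2, Hibadh and Ivd. In J0_MLKL, among the 5 enzymes with counts, Dbt was higher than in J0_CTL (0.59 ± 0.12, adjusted p = 0.00271), Mccc1 was slightly higher (0.19 ± 0.07, adjusted p = 0.0326) and Ivd was lower (-0.34 ± 0.06, adjusted p = 0.00152), where edgeR called 83.6% of 3824 genes, 40.4% higher and 43.2% lower. The Mccc1 call was lost with total reads only (adjusted p = 0.0590), with the authors' size factors (0.0782), with a mean of at least 50 counts (0.0504), with the replicate block (0.0766) and without any 1 of J0_CTL 1, J0_CTL 2, J0_CTL 3, J0_MLKL 1 or J0_MLKL 3, and the authors' deposited table lists Dbt and Ivd as called. Bcat2 differed by 0.27 ± 0.14 (adjusted p = 0.108), by 0.0724 without library 2 of J0_MLKL and by 0.36 without library 1, where it was called (adjusted p = 0.0485). Aldh6a1 differed by 0.02 ± 0.07 (adjusted p = 0.797). Dbt has J0_MLKL counts only because the authors called it in J0_MLKL against J0_CTL. Its call here, and its place in the authors' deposited table, were thus largely set by that selection.

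The knockouts were also set directly beside each other. All 10 enzymes were lower in J7_MLKL than in J7_RIPK3 (edgeR, 86.8% of 6591 genes called and 42% called lower), from Dbt at log2 -3.63 ± 0.33 (adjusted p = 8.50e-05) to Mccc1 at -0.94 ± 0.09 (adjusted p = 9.10e-05). Scaling by total reads moved the median of all genes in this comparison by -0.17, well under the size of these differences. The selection of genes with J7_MLKL counts, given above, applies to this count too. In J0_MLKL against J0_RIPK3 3 of 5 were higher (edgeR, 66.5% of 3455 genes called and 33.1% called higher), namely Dbt by 0.47 ± 0.12 (adjusted p = 0.0108), Bcat2 by 0.43 ± 0.15 (adjusted p = 0.0308) and Mccc1 by 0.32 ± 0.07 (adjusted p = 0.00482). Without library 2 of J0_MLKL 4 were higher and Ivd was lower (-0.22, adjusted p = 0.000155), and without library 3 of J0_RIPK3 1 was higher. Ivd, at -0.18 (adjusted p = 0.0501) as reported, was also called lower with total reads only (adjusted p = 0.0221). The selection of genes with J0_MLKL counts, given above, applies to these counts at J0.

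Whether differentiation acted differently in a knockout was tested as a difference of changes. The J0 to J7 change of 9 of the 10 enzymes was larger in the RIPK3 line than in control cells (edgeR, 39% of 11027 genes called and 18.4% called higher), and that of Mccc1 exceeded control by 0.94 ± 0.06 on the log2 scale (adjusted p = 6.67e-13). In the MLKL line it was smaller than in control cells for 5 of the 5 enzymes tested (edgeR, 65.3% of 3033 genes called and 26.3% called lower), by the widest margin for Dbt (-3.77 ± 0.35, adjusted p = 2.79e-06). In that comparison the median over all genes was 0.30 and moved to -0.01 with DESeq2 size factors, where 963 genes were called higher and 1012 lower in place of 1184 and 797. The 5 enzymes were further down with those size factors, with Dbt at -4.09 and Mccc1 at -0.84. Both statements rest on the pairing by titles. The 5 enzymes of the MLKL line entered only through the authors' calls in J0_MLKL comparisons. Dbt entered through a higher level in J0_MLKL than in J0_CTL, a selection that favours a smaller J0 to J7 change. Bcat2, Mccc1 and Aldh6a1 entered through a rise from J0_MLKL to J7_MLKL, a selection that works the other way. The shift in the RIPK3 line was shared by other lists of genes, given below.

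Ratios of FPKM within a library show how the make-up of the pathway shifted. The cytosolic aminotransferase Bcat1 went down while Bcat2 went up, so Bcat2 made up 76.9% ± 1.17 (SD, n = 3) of both in J0_CTL and 98.6% ± 0.0640 in J7_CTL. That share was 99.1% ± 0.0354 in J7_RIPK3 and 95.6% ± 1.61 in J7_MLKL. The E2 gene Dbt stood at 0.234 ± 0.0252 of Bckdha in J0_CTL and at 0.962 ± 0.0237 in J7_CTL, so transcripts of the core and of E1 alpha came to nearly equal levels. In J7_MLKL the ratio was 0.364, 0.367 and 0.134 in the 3 libraries, so the first pair lay above every J0 library with counts for both genes (0.215 to 0.327) and library 3 below them all. In J7_RIPK3 it was 1.24 ± 0.0710. Bckdhb over Bckdha was 0.854 ± 0.0274 in J0_CTL, 1.26 ± 0.0253 in J7_CTL, 1.496 ± 0.0787 in J7_RIPK3 and 1.02 ± 0.209 in J7_MLKL. The ratio of the carboxylase subunits was lower in both knockouts than in control cells at J7. Mccc2 over Mccc1 was 3.31 ± 0.0926 in J7_CTL but 2.44 ± 0.0935 in J7_RIPK3 and 1.79 ± 0.226 in J7_MLKL, and the libraries of these 3 groups did not overlap. These ratios are descriptions without a test.

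BCKDH is switched off by the kinase Bckdk and switched on by the phosphatase Ppm1k. Bckdk FPKM was 14.95, 14.9 and 14.0 in J0_CTL and 19.8, 17.8 and 18.4 in J7_CTL, a rise of 0.30 ± 0.04 on the log2 scale (edgeR, adjusted p = 9.52e-07), so the kinase fell from 1.34 ± 0.0525 to 0.512 ± 0.0198 of Bckdha. It had no counts in the MLKL groups and did not differ past the threshold between J7_RIPK3 and J7_CTL (0.08 ± 0.05, adjusted p = 0.136). Ppm1k FPKM was 1.98, 1.92 and 1.84 in J0_CTL, 1.301, 1.35 and 1.32 in J0_RIPK3 and 1.35, 1.12 and 1.42 in J0_MLKL. At J7 it was 3.47, 3.75 and 3.68 in J7_CTL, 4.35, 4.22 and 4.38 in J7_RIPK3 and 1.69, 2.44 and 1.602 in J7_MLKL. The phosphatase rose with differentiation in control cells (0.88 ± 0.07, adjusted p = 5.24e-11) and in the RIPK3 line (1.67 ± 0.08, adjusted p = 1.27e-14), with a difference of 0.82 ± 0.11 between these changes (adjusted p = 4.21e-07). Its level was lower in J0_RIPK3 than in J0_CTL (-0.55 ± 0.09, adjusted p = 1.70e-05) and higher in J7_RIPK3 than in J7_CTL by a smaller step (0.26 ± 0.06, adjusted p = 0.00152). It was lower in J0_MLKL than in J0_CTL (-0.53 ± 0.12, adjusted p = 0.00398) and differed by 0.52 ± 0.21 between J7_MLKL and J0_MLKL (adjusted p = 0.0654). It was lower in J7_MLKL than in J7_CTL (-0.83 ± 0.18, adjusted p = 0.00464). Dld, the E3 subunit that BCKDH shares with other dehydrogenases, was at 28.3, 28.1 and 29.8 FPKM in J0_CTL, 157, 150 and 154 in J7_CTL and 39.3, 42.9 and 43.4 in J7_MLKL. Klf15, a transcription factor known to drive this pathway in muscle and liver, had 0 to 2 reads in each J0 library and 30.9, 28.9 and 31.3 FPKM in J7_CTL. In J7_RIPK3 it was at 34.6, 34.1 and 33.6 FPKM, and in J7_MLKL at 0.609, 0.413 and 1.12, 2.42% of J7_CTL (log2 -5.28 ± 0.34, adjusted p = 3.18e-05). Slc25a44, the mitochondrial importer of branched-chain amino acids, rose in control cells (1.46 ± 0.04, adjusted p = 4.83e-20) from 8.56, 8.29 and 8.04 to 23.3, 24.1 and 23.4 FPKM and was at 10.7, 9.96 and 8.34 in J7_MLKL.

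**Figure D4:**
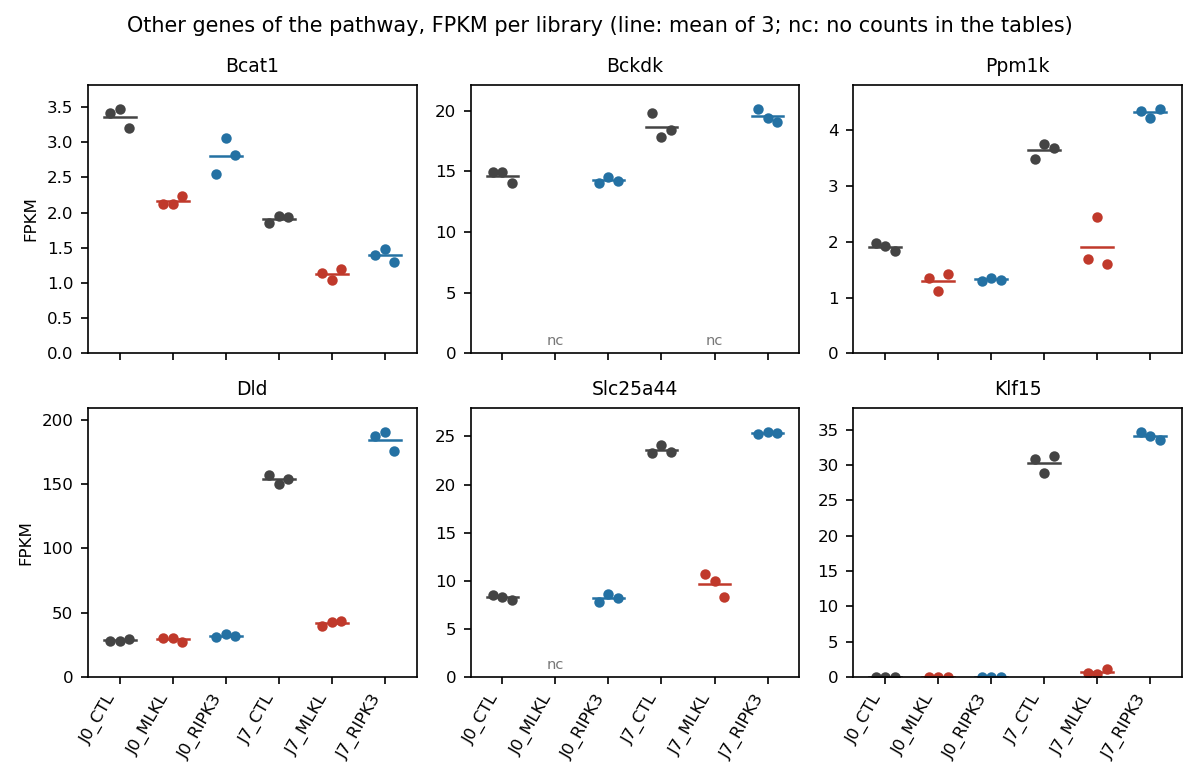
FPKM (y axis, linear from 0) of Bcat1, Bckdk, Ppm1k, Dld, Slc25a44 and Klf15 in each library of the 6 groups, with points for libraries, lines for group means and nc where the tables hold no counts. Bcat1 is the only one of these 6 genes with lower values in J7_CTL than in J0_CTL.

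The wider pathway, 29 other genes of uptake, later steps and control, had smaller median changes than the 10 enzymes. From J0_CTL to J7_CTL 26 of 28 tested genes rose and 2, Bcat1 (-0.86 ± 0.06) and the aminotransferase Abat (-0.82 ± 0.12), fell, with a median log2 change of 0.94. In J7_MLKL 18 of 20 tested genes were lower than in J7_CTL and 0 higher, with a median of -1.09. J7_MLKL counts exist only for genes that the authors called in a J7_MLKL comparison, so counts of lower genes depend on that selection. Genes further downstream were among those lower: methylmalonyl-CoA mutase (Mut) was lower by 1.66 ± 0.19 and the propionyl-CoA carboxylase gene Pcca by 1.38 ± 0.09 on the log2 scale in J7_MLKL. In J7_RIPK3 19 of 28 were higher and 6 lower than in J7_CTL, with a median of 0.19. Among the latter, Pcca was lower by 0.29 ± 0.04 and the plasma membrane transporter Slc7a5 by 0.39 ± 0.04, while Hadhb, a subunit of the mitochondrial trifunctional protein, was higher by 0.83 ± 0.04. Subunits of the sister dehydrogenases for pyruvate and oxoglutarate rose in 6 of 6 cases from J0_CTL to J7_CTL (median 1.67) and were lower in 6 of 6 in J7_MLKL (median -1.47). The 12 TCA cycle enzymes rose in 12 of 12 cases (median 1.52) and were lower in 12 of 12 in J7_MLKL (median -0.89). The direction was thus shared with neighbouring mitochondrial pathways. The medians of the 10 enzymes, 2.22 and -1.66, were the larger ones in both of these comparisons. In J7_RIPK3 against J7_CTL 6 of 6 sister subunits were higher (median 0.31). Of the 12 TCA cycle enzymes 9 were higher and 2 lower there (median 0.29). The median of the 10 enzymes in that comparison, 0.27, was smaller than either. The J0 to J7 change was larger in the RIPK3 line than in control cells for 5 of 6 sister subunits (edgeR, median 0.30). The same held for 8 of 12 TCA cycle enzymes (median 0.22) and 16 of 28 other pathway genes (median 0.20). It was smaller for 0, 0 and 1 of them. The median of the 10 enzymes was 0.44 there. The lists were not tested against each other. Members and lists were chosen with earlier results of these data known, so the ranking of their medians depends on that choice.

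The authors' deposited table of KEGG pathways gives valine, leucine and isoleucine degradation an adjusted p of 0.00115 for J7_CTL against J0_CTL, with 43 genes higher and 6 lower. For J7_MLKL against J7_CTL the authors' deposited table gives 2 higher and 33 lower (adjusted p = 0.00170). For J7_RIPK3 against J7_CTL the authors' deposited table gives 34 higher and 5 lower (adjusted p = 1.60e-06), the second lowest of 318 pathways. Within the lines, the authors' deposited table gives 44 higher and 4 lower for J7_RIPK3 against J0_RIPK3 (adjusted p = 0.00137), and 12 higher and 2 lower for J7_MLKL against J0_MLKL (adjusted p = 0.0204). At J0 the adjusted p in the authors' deposited table was 0.158 for J0_RIPK3 and 0.310 for J0_MLKL, each against J0_CTL.

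Over the 12 CTL and RIPK3 libraries, the genes whose log2 CPM followed the mean of the 10 enzymes most closely among 9692 protein-coding genes were Alkbh5 (Pearson r = 0.99965), Aifm2 (0.99957), Pla2g12a (0.99944), Hadh (0.99941) and Ndufa10 (0.99936). With a pseudocount of 0.1 in place of 1 Ndufa10 left these 5 and the other 4 stayed among them. Alkbh5 encodes an RNA demethylase, Aifm2 an oxidoreductase of coenzyme Q, Pla2g12a a secreted phospholipase, Hadh a mitochondrial fatty acid oxidation enzyme and Ndufa10 a subunit of respiratory complex I. These values describe libraries that mostly differ between J0 and J7. Among the members, Mccc1 (r = 0.973) and Hibadh (0.989) followed the mean of the set least.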

How the data were processed

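RNA of 18 libraries of 3T3-L1 cells was sequenced. Per the submitters' processing notes, FastQC 0.11.9, HISAT2, featureCounts 1.5.0-p3 and DESeq2 were used with the build mm10; strand use in counting is not given in the sources used here. The authors deposited 7 tables, each holding raw counts, FPKM, normalised counts (a signal scaled by DESeq2 size factors), log2 fold changes and p-values, for genes at an adjusted p-value under 0.05 only. The authors also deposited tables of KEGG enrichment with counts of genes, of which the p-values are quoted.

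Counts were joined by Ensembl identifier over the 7 tables; 88950 repeated counts held 0 disagreements. Library totals were recovered from count, FPKM and gene length, and ranged from 20.2 to 36.9 M reads. FPKM was used for levels between genes. Each comparison was fitted over all genes with counts in its groups with edgeR 4.0.16 (R 4.3.3): genes were kept by filterByExpr, libraries were scaled by their totals times TMM factors, and p-values of the quasi-likelihood F test were adjusted after Benjamini-Hochberg over all genes tested, with a threshold of 0.05. Standard errors are the absolute log2 fold change over the root of F. Fold values are ratios of pooled CPM. Alternatives were DESeq2 1.42.0, other scalings and filters, a replicate block, leaving out libraries and, added after seeing the data, pairing by the genotype characteristic. Likeness was measured on log2(CPM + 1). The fit was tested on simulated data. The 10 members and the other lists were chosen with earlier results of these data known. All 10 members are named, and so are the genes that control BCKDH; further examples from the other lists were chosen after their values were seen. The tables keep only called genes, so the background shares are high and depend on that selection.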

Additional observations from a re-analysis of the deposited data

Results flagged for a closer look

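The change from J0 to J7 differed from that of control cells for 5 of 5 enzymes tested in the MLKL line, where 65.3% of 3033 genes were called, and for 9 of 10 in the RIPK3 line, where 39% of 11027 were. Each difference was tested directly in an edgeR fit over 12 libraries. The 5 enzymes of the MLKL line had counts only through the authors' calls in J0_MLKL comparisons. In the MLKL line the difference from the control change was -2.50 for Bcat2, -3.77 for Dbt, -1.45 for Ivd, -0.52 for Mccc1 and -2.25 for Aldh6a1 on the log2 scale. In the RIPK3 line it was 0.36 for Bcat2, 0.46 for Bckdha, 0.51 for Bckdhb, 0.53 for Dbt, 0.43 for Ivd, 0.94 for Mccc1, 0.45 for Mccc2, 0.13 for Hibadh and 0.30 for Aldh6a1. The Hibadh value is the only one of the 14 whose call was lost under an alternative, with total reads only (adjusted p = 0.167) and without any 1 of 6 libraries. The opposite signs of the knockouts refer to groups named by their titles. In the RIPK3 line the sister dehydrogenase subunits and TCA cycle enzymes shifted in the same direction, as given above. These comparisons share the control libraries, and adipocyte markers were lower in J7_MLKL, whose part was not tested.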

How the results depend on the processing

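Over all alternatives, 1203 of 1286 recomputed values, counts of members aside, kept their direction and side of the threshold. Counts of members called moved by more than 1.5 times in 2 comparisons. For J0_RIPK3 against J0_CTL the count was 3 with DESeq2 in place of 6, and 3 to 5 when 1 library was left out. For J0_MLKL against J0_RIPK3 it was 5 without both libraries that stood apart in place of 3, and 1 to 5 when 1 library was left out. The count when 1 library was left out was 3 to 4 for J7_MLKL against J0_MLKL, 2 to 3 for J0_MLKL against J0_CTL, 9 to 10 for J7_MLKL against J7_CTL and 8 to 9 for the RIPK3 change minus the control change, and did not move in the other comparisons. Signs turned for 3 differences that were near 0 and not called as reported. Dbt in J7_MLKL against J0_MLKL was -0.00140 with DESeq2 size factors, -0.00114 with DESeq2, and -0.21 to 0.32 when 1 library was left out. Aldh6a1 in J0_MLKL against J0_CTL was -0.0108 with total reads only, -0.0240 with the authors' size factors, -0.00520 with a mean of at least 50 counts and -0.0188 to 0.0625 when 1 library was left out. Bckdhb in J0_RIPK3 against J0_CTL was -0.0249 to 0.0233 when 1 library was left out. The cause was not tested. The authors' size factors were not run for the direct comparisons of the knockouts and the differences of changes, which no single table covers.

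The labels give same-numbered libraries of different groups no link beyond the number. The correlation of their deviations ran from -0.775 to 0.594 for J7_MLKL against J0_MLKL, where library 2 of J0_MLKL and library 3 of J7_MLKL stood apart. No comparison had every pair over 0.1, but with 3 libraries per group this check cannot exclude a pairing. With the replicate number as a block, 3 members were called for J7_MLKL against J0_MLKL, 2 for J0_MLKL against J0_CTL, 5 for J0_RIPK3 against J0_CTL and 9 for J7_MLKL against J7_CTL, and the other counts did not move. Bcat2 rose by 0.97 (adjusted p = 0.0664, edgeR) and Dbt differed by -0.0683 from J0_MLKL to J7_MLKL under this block.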
